A study of Salix matsudana with 3 samples.

Results

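Of the 205 miRNA entries listed for Salix matsudana, the Chinese willow, 51 belonged to numbered families outside the widely conserved set. They were chosen by name alone. An entry was taken when the number after miR or MIR was not that of a broadly conserved family, of a regulator of disease resistance or MYB genes studied separately, or of a possible rRNA or tRNA fragment. Predicted entries, whose names begin with PC, were left out. The 51 entries covered 40 of the 76 family numbers in the table and held 50 distinct mature sequences. No measure of conservation was made, so the name of the group rests on the family numbers. In the degradome table, 18 of the 51 entries appeared, with 180 of the 981 listed pairs of an entry and a cleavage site.

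The series has 3 samples of roots and stems from plants aged 30 days. A small RNA library came from untreated plants, another came from plants kept in 100 mmol per litre NaCl for 2 days, and a degradome library, which reads the ends of cleaved transcripts, came from RNA of both mixed. No cultivar, clone or number of pooled plants is given in the sources used here. Each condition had 1 library, so no difference between conditions has a replicate check, and none was tested. No untreated library at 2 days was analysed here, so salt and elapsed time cannot be told apart. The tables hold no marker genes by which the labelled tissues could be checked, and fewer cells of a type and less miRNA per cell cannot be told apart.

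A plant miRNA is cut from a hairpin transcript by a DICER-LIKE enzyme and guides an ARGONAUTE protein to transcripts with a nearly complementary stretch. The protein cuts the target opposite the middle of the miRNA. Young or lineage-specific families usually have few genomic copies, low levels and few known targets. Among the families present here, miR475 and miR476 are known in poplar for sites in pentatricopeptide repeat genes, miR477 for GRAS transcription factors, miR1444 for polyphenol oxidases and miR3627 for calcium-transporting ATPases.

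The mature sequences of the entries that reached the level minimum are shown first, because all ratios between the libraries rest on them. Capitals mark the seed, bases 2 to 8 from the 5′ end, and T stands for U as in the deposited table. The seeds were all different except in miR3630, whose 20-base sequence is listed under 2 names, a grapevine name given here and the sunflower name han-miR3630-3p_L-2_1ss21TA. The endings of the deposited names are left out for these entries afterwards.
ptc-miR475a-3p: tTACAGTGcccattgattaag
mes-miR477f_R+1: aTCTCCCTcaaaggcttccaa
mes-miR530a_R+1: tGCATTTGcacctgcacctta
ptc-miR3627a_R+1_1ss20TC: tCTGTCGCtggaaagatggcacc
ptc-miR3627b_1ss7AG: tGTCGCGGgagagatggcgcta
ptc-miR1444a_R+1: tCCACATTcggtcaatgttcg
vvi-miR3630-3p_L-2_1ss22CT: tGGGAATCtctctgatgcat
ptc-miR6427-5p: tCGTAATGcttcattctcacaa
ptc-miR6427-3p: gTGGGAATgaacattatgaga
ptc-miR6457b_1ss11AG: tTAGTTTGgcggcctcttctc
ptc-MIR481d-p5_2ss18AT24AC: aTGGTATCagagccttgttgaccc
ptc-MIR481d-p3_2ss6AG17AG: aAGGTGATgtgggcctgtgcaagt
ptc-MIR481c-p5_1ss1GA: aCGGTCACgagttcgaatctcacc
ptc-MIR481c-p3_1ss4AG: gTGGGCCTgtgcaagtttcaagcc

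Levels are given as RPM, the reads of an entry divided by the reads over all 205 entries and multiplied by 1000000. There were 4622984 such reads for untreated plants and 734026 for salt-treated plants, so the salt library was 6.30-fold shallower. Each untreated read was worth 0.216 RPM and each salt read 1.36 RPM. With 3 reads as the upper limit of a count of 0, an unseen entry could reach 0.649 and 4.09 RPM. Ratios of shares carry 95% exact intervals that cover counting error only.

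The 51 entries together were a small part of the miRNA pool, and how that part compared between the libraries depended on the reference total. They took 1.17% of the untreated reads (exact Clopper-Pearson interval 1.16 to 1.18) and 1.11% of the salt reads (1.09 to 1.14), a share 1.05-fold lower with salt (1.02 to 1.07). Their summed level was 2.06-fold lower with salt when the 5 most abundant entries were left out of the total and 1.36-fold lower without miR159. It was 1.11-fold higher when possible rRNA or tRNA fragments were left out. Inside the group the makeup differed. The entries ptc-miR3627a and ptc-miR1444a held 84.2% of the group's untreated reads and 58.8% of its salt reads. The other 49 entries held 0.184% of all listed untreated reads and 0.459% of the salt reads, a share 2.50-fold higher (2.40 to 2.60). Without both miR3630 names, the remaining 47 stood at 0.168% and 0.263%, 1.56-fold higher (1.48 to 1.64). These rises were taken over the listed total only. Leaving the 5 most abundant entries out moved the sum of the 51 from 1.05-fold to 2.06-fold lower. The same move would turn the rise of the 47 entries into a fall, so its direction also depends on the reference total.

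A mean level of at least 10 RPM was reached by 15 of the 51 entries (29.4%), from 9 families and with 14 sequences. The same minimum was reached by 84 of the 112 numbered entries outside the group (75%). An entry was called higher or lower when the log2 ratio of salt over untreated, taken on level + 1, was past 2-fold. Of the 15, 4 were higher (26.7%), 1 was lower (6.67%) and 10 lay within 2-fold. The 4 count the miR3630 sequence under both of its names. They also include ptc-miR3627b, which passed the minimum only through its salt level. Over all 115 entries at the minimum, 32.2% were called higher and 13.0% lower, so the count of higher entries was near the background. The median log2 ratio was 0.51 in the group and 0.33 over all 115.

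The reference total moved these ratios. Against its value with the listed total, the median over the 115 tested entries shifted by -0.97 log2 when the 5 most abundant entries were left out of the total, by -0.38 without miR159 and by -0.36 with median ratio scaling. It shifted by -0.17 with identical sequences counted once and by 0.22 without possible rRNA or tRNA fragments. Of the 15 entries, 6 kept their sign under all 6 scalings and 3 stayed past 2-fold, namely both miR3630 names and ptc-miR3627b. The last of these reached the level minimum, with a mean of 10.1 RPM, only through the salt library in which it was higher, and it fell below the minimum with median ratio scaling. Its call is therefore a description with no weight of its own. Among the 10 entries within 2-fold, 9 changed sign under at least 1 scaling.

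**Figure D1:**
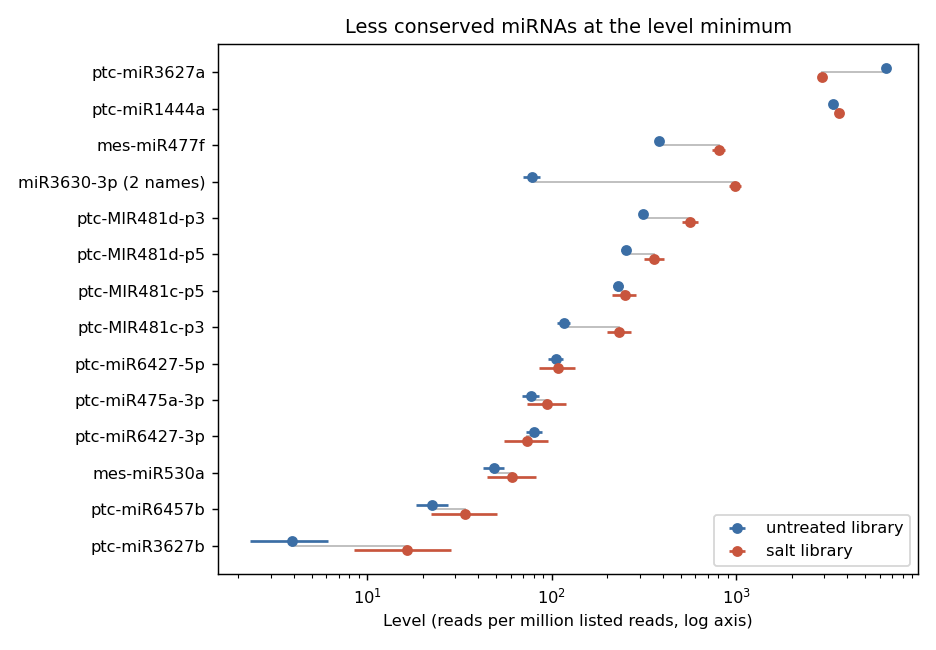
Level of each less conserved miRNA at the level minimum in the untreated library (blue) and the salt library (red), in RPM on a log axis; bars are 95% exact counting intervals and each point is 1 library. miR3630 stood furthest apart, at 78.0 and 982 RPM, while ptc-miR3627a was lower with salt, at 6465 and 2922 RPM.

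The miR3627 family, known for sites in autoinhibited calcium ATPases that pump calcium out of the cytosol, held both the most read entry of the group and its least read tested entry. ptc-miR3627a had 29887 untreated and 2145 salt reads, or 6465 and 2922 RPM. Its share was 2.21-fold lower with salt (2.12 to 2.31), with a log2 ratio of -1.15 that ranged from -2.12 to -0.93 over the scalings. It fell within 2-fold only when possible rRNA or tRNA fragments were left out of the total. ptc-miR3627b had 18 and 12 reads, or 3.89 and 16.3 RPM, a share 4.20-fold higher (1.84 to 9.21) on few reads. The salt level alone took its mean past the minimum. Its ratio ranged from 1.06 to 2.04 log2. For each read of ptc-miR3627b there were 1660 reads of ptc-miR3627a without salt and 179 with it. Aligned without gaps, ptc-miR3627b begins 2 bases inside ptc-miR3627a and differs from it at 4 of 21 bases.

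Both miR3627 entries were listed on the same 4 symbols in the degradome. These were ACA8, ACA9, ACA10 and ACA13, all autoinhibited calcium ATPases, with ACA10 in 2 rows for each entry. ptc-miR3627a had 42 degradome reads at each of its 5 sites with an alignment score of 4, on a scale from 0 to 4 in which lower is a better match. ptc-miR3627b had 2 reads at each of its 5 sites with a score of 3. In ACA10 the sites of ptc-miR3627a lay at positions 265 and 202 and those of ptc-miR3627b at 263 and 200. Matched by symbol and order of position, since no transcript names are given, all 5 pairs of sites stood 2 bases apart. That is the same distance as between the starts of the miRNAs. All of these sites were listed opposite base 10 of the miRNA, so the distance follows from the alignments and is no separate evidence. The better score thus went with the rarer miRNA and fewer cut ends.

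The deposited signal, headed TPB, scaled the reads of each row by a whole number. For each of the 180 pairs of the group, TPB divided by the raw reads was 52.7 or 52.7 divided by a whole number from 1 to 10, within a tolerance of 0.001. The whole number was 5 for the ATPase sites of ptc-miR3627a, the number of its rows. Pairs were then grouped by entry, reads and divisor. With identical names counted once, 31 groups had a divisor above 1. In 20 of these, holding 104 pairs, the number of pairs was a multiple of the divisor, and in the other 11, holding 52 pairs, it was not. Whether the divisor counts rows that share reads was not settled. Divided by it, the 5 ATPase rows of ptc-miR3627a sum to 42 reads, and without division to 210. Over the group, the raw counts summed to 1019 and the divided counts to 287. The sources used here do not say what TPB stands for, and the rows carry no transcript names, so isoforms of a gene cannot be told from separate genes.

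miR1444, known in poplar for cleaving transcripts of polyphenol oxidases, copper enzymes that brown wounded tissue, had nearly the same share in both libraries. ptc-miR1444a stood at 15491.5 and 2658 reads, or 3351 and 3621 RPM. Its share was 1.08-fold higher with salt (1.04 to 1.13). The log2 ratio of 0.11 ranged from -0.86 to 0.33 over the scalings, and its sign turned under each of them but that which drops possible rRNA or tRNA fragments. It had the most degradome reads of the group. Its 3 sites with 111 reads each scored 3.5, at transcript positions 1090, 1101 and 1101. The better matched sites, with a score of 1.5, had fewer reads, 18 at each of 4 and 11 at each of 4. None of these 11 sites carried a gene symbol. The sites that did, 4 in the subtilase gene SBT1.8, had 2 reads each and a score of 4. No symbol listed for the group began with PPO, ADH or SOD, the words searched for oxidases and copper enzymes.

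A further miR1444 entry, ptc-miR1444d_2ss6GA20AG, is shown because it is the exact reverse complement of ptc-miR1444a over all 21 bases.
ptc-miR1444d_2ss6GA20AG: cGAACATTgaccgaatgtgga
It had 2 untreated reads and 1 salt read, so ptc-miR1444a took nearly all reads of the pair. No precursor was listed for either.

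miR475 and miR476 are known in poplar for sites in pentatricopeptide repeat genes, whose proteins process RNA in mitochondria and chloroplasts. ptc-miR475a-3p had 355 and 69 reads, or 76.8 and 94.0 RPM, a share 1.22-fold higher (0.932 to 1.59). Its log2 ratio of 0.29 ranged from -0.68 to 0.51, so its direction was not fixed. Its sites both lay in At1g12700, which in Arabidopsis encodes a pentatricopeptide repeat protein of mitochondria. The site at position 1193 had 4 reads and a score of 2, and the site at position 583 had 1 read and a score of 4. Both had a divisor of 1. ptc-miR476a_1ss10TC had 18 and 1 reads and no degradome pair. The search words for this class also took any Arabidopsis gene code and matched 17 pairs with 7 symbols in 5 entries, so that count is not specific to these repeat genes.

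Among miRNAs placed with growth regulators, mes-miR477f was called higher and mes-miR530a was not. mes-miR477f had 1774 and 590 reads, or 384 and 804 RPM, a share 2.09-fold higher (1.91 to 2.30). Its log2 ratio of 1.06 ranged from 0.09 to 1.28, and it was past 2-fold only with the listed total and without possible rRNA or tRNA fragments. It had no degradome pair, and no GRAS, SCL or SPL symbol was listed for any entry of the group. The other miR477 entry, ptc-miR477c, had 2 untreated reads and none in the salt library.

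mes-miR530a, from a family found in many flowering plants, had 224 untreated and 44.8 salt reads, which are estimated and need not be whole. These were 48.5 and 61.1 RPM, a share 1.26-fold higher (0.897 to 1.75) whose sign turned over the scalings, from -0.64 to 0.54 log2. Its 18 degradome pairs fell into 3 sets. The best matched set was 8 sites with no symbol, 4 reads each and scores of 1.5 to 2. Another was 6 sites in BHLH13, a transcription factor that in Arabidopsis represses jasmonate responses, with 4 reads each, a score of 3 and a divisor of 6. The last was 4 sites with no symbol, 1 read each and a score of 4.

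miR3630, first described in grapevine, stood furthest above the untreated library. Each of its names carried 360.5 untreated and 720.5 salt reads, or 78.0 and 982 RPM, a share 12.6-fold higher (11.1 to 14.3). The log2 ratio of 3.64 ranged from 2.67 to 3.86. This was the only tested sequence of the group with more reads in the shallower salt library than in the untreated library. The sources used here do not say whether its reads were divided between the names or counted under each. In either case the ratio is the same.

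The degradome pairs of miR3630, 13 under each name, were led by 8 sites in ARGONAUTE genes that carry the symbols AGO4, AGO4A, AGO9 and AGO16. Proteins of the AGO4 branch bind small RNAs of 24 bases and guide DNA methylation. Each site had 4 reads, a score of 4 and a divisor of 8, so the divided counts of the 8 rows sum to 4 reads. All 8 were counted opposite base 9 of the miRNA, with an aligned stretch shorter than the miRNA. The other 5 sites had no symbol, 1 read each and scores of 3 to 4. The ARGONAUTE sites had few reads and the weakest score listed.

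miR6427 and miR6457 carry poplar names. ptc-miR6427-5p had 486 and 79 reads, or 105 and 108 RPM, and ptc-miR6427-3p had 370 and 54 reads, or 80.0 and 73.6 RPM. Their shares were 1.02-fold higher (0.797 to 1.30) and 1.09-fold lower (0.816 to 1.48). Over the scalings the log2 ratios ranged from -0.94 to 0.25 for the 5p arm and from -1.09 to 0.098 for the 3p arm. Both signs thus turned, and the 3p arm passed 2-fold lower when the 5 most abundant entries were left out. The 5p arm held 56.8% of the reads of both arms without salt (exact interval 53.4 to 60.1) and 59.4% with salt (50.5 to 67.8). No precursor was listed. In a predicted duplex the arms formed 19 base pairs, at -24.6 kcal/mol, with 1 base unpaired at the 3′ end of each. ptc-miR6427-3p had 5 degradome pairs with 1 read each and a score of 3.5. Their symbols were At1g62020, At2g21390 and Os09g0127800, which name the alpha subunit of the coatomer, a coat of vesicles between Golgi and endoplasmic reticulum.

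ptc-miR6457b had 104 and 25 reads, or 22.5 and 34.1 RPM, a share 1.51-fold higher (0.937 to 2.36) that ranged from -0.37 to 0.79 log2. Its single degradome site had 30 reads, a divisor of 1 and a score of 3. That was the highest read count among the sites of the group with a divisor of 1. It carried no gene symbol.

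**Figure D2:**
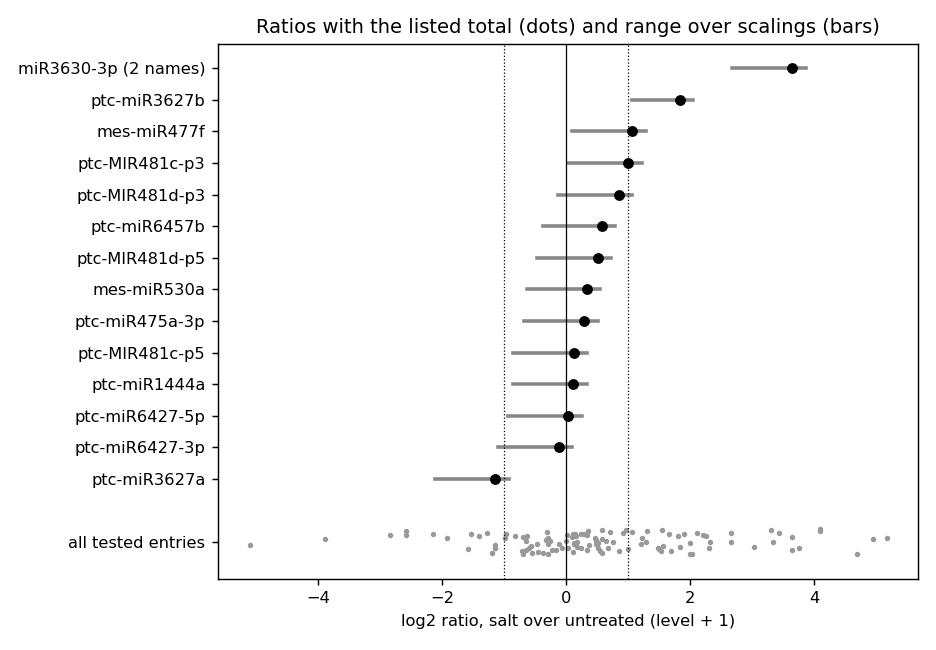
log2 ratio of salt over untreated for the 14 sequences at the level minimum with the listed total (black dots) and its range over 6 scalings (grey bars), above all 115 tested entries (small grey dots, spread vertically at random); dotted lines mark 2-fold. Only miR3630 and ptc-miR3627b stay above the upper line over the whole range, the latter on 18 and 12 reads, while ptc-miR3627a stays below 0.

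The miR481 hairpins gave 4 tested entries, all of 24 bases, the length that in plants is mostly made by DICER-LIKE3 and bound by ARGONAUTE4. ptc-MIR481d-p3 had 1450.5 and 414.5 reads, or 314 and 565 RPM, a share 1.80-fold higher (1.61 to 2.01). ptc-MIR481d-p5 had 1165.5 and 263.5 reads, or 252 and 359 RPM, 1.42-fold higher (1.24 to 1.63). ptc-MIR481c-p3 had 536.5 and 170.5 reads, or 116 and 232 RPM, and ptc-MIR481c-p5 had 1058.5 and 182.5 reads, or 229 and 249 RPM. The former was 2.002-fold higher (1.67 to 2.38), just under 2-fold on the scale of level + 1, and the latter 1.09-fold higher (0.921 to 1.27). With the listed total all 4 lay within 2-fold, and the sum over the family was 1.54-fold higher (1.44 to 1.65). Over the scalings, ptc-MIR481d-p3 ranged from -0.13 to 1.07 log2 and ptc-MIR481d-p5 from -0.47 to 0.73. ptc-MIR481c-p3 ranged from 0.02 to 1.21 and was the only one to keep its sign, and ptc-MIR481c-p5 ranged from -0.86 to 0.34. Both p3 entries passed 2-fold when possible rRNA or tRNA fragments were left out. The family sum was not computed under the other scalings.

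The arms of the miR481 hairpins did not move alike. The p5 arm of MIR481c held 66.4% of the reads of both arms without salt (64.0 to 68.7) and 51.7% with salt (46.2 to 56.9). These counting intervals do not overlap. The p3 arm of MIR481d held 55.4% (53.5 to 57.3) and 61.1% (57.3 to 64.8). Reads could not be assigned to a hairpin with certainty. The listed precursors were identical at 174 of 190 aligned bases, and both MIR481d arms match either precursor with 0 mismatches. ptc-MIR481c-p3 has 1 mismatch to its own listed precursor and 0 to that of MIR481d. It also shares a stretch of 16 bases with ptc-MIR481d-p3. The p5 entries are different stretches, at bases 45 to 68 of the MIR481d precursor and 73 to 96 of the MIR481c precursor.

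The MIR481d precursor is shown because it matches 3 of these 4 entries exactly. It lay at positions 1611 to 1797 of contig c14286_f1p0_3391_3_6kb, and capitals mark the listed arms.
ptc-MIR481d: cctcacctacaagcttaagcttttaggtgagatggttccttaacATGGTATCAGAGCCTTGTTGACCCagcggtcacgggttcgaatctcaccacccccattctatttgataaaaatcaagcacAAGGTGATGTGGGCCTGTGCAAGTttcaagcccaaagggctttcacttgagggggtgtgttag
ptc-MIR481d-p5 had 2 degradome sites, in PRIN2, a plastid protein of redox-controlled transcription, and in At4g27290. Both had a score of 0, the best on the scale and given to no other pair of the group, but 1 read each. The reverse complement of this arm shares 13 bases with ppe-miR1511-3p_L+1R-1_1ss19TG, another entry of the group with 2 untreated reads. It shares 13 bases also with rgl-miR5139_L+2, an entry outside the group with 587 untreated and 2 salt reads. That entry is among the possible rRNA or tRNA fragments. On the same strand, ppe-miR1511-3p_L+1R-1_1ss19TG shares 18 bases with it.

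The remaining 36 entries stayed under the level minimum, and none had more than 6 salt reads. Of the 51 entries, 21 had no read in the salt library, 2 had none in the untreated library and 28 had reads in both. Among the 112 numbered entries outside the group, 10 had no salt read. The untreated count was at most 10 in 29 of the 51 entries. Of the 21 entries without salt reads, 14 had at most 3 untreated reads, too few to expect a read in the 6.30-fold shallower salt library. Their absence there thus does not show a lower level. Only 3 of the 21 had more than 10 untreated reads. Set against a floor of 3 salt reads, aly-miR158a-3p, with 45 untreated reads, was at least 2.38-fold lower, and ath-miR5642a_R+4, with 29, at least 1.53-fold lower. For nta-miR6149a, with 15 untreated reads, the floor lay above the untreated level, so a difference was not detectable at this depth. Exact intervals that allow for counting error in either library began at 1.86-fold and 1.17-fold lower for the former pair.

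Other entries under the minimum had few reads in both libraries. ptc-MIR6469-p3 had 28 and 2 reads, hbr-MIR6485-p5_1ss18AG 15 and 6, and hbr-MIR6485-p3_2ss18TG20TC 11 and 2. ptc-MIR6458-p5_1ss16GA had 9 and 1 reads, ptc-miR6474_L-2R+2 had 8 and 1, and ath-miR163 had 8 untreated reads and none with salt. For each of these 6 entries the interval of the ratio included equal shares.

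Reads were spread unevenly over the species in the entry names. Names begin with the species in which the miRNA was described, and poplar, the sister genus of willow, gave 22 of the 51 entries. Their reads made up 94.6% of the group's untreated reads and 74.4% of its salt reads, and they gave 11 of the 15 tested entries. Most of those reads came from ptc-miR3627a and ptc-miR1444a, which held 84.2% of the group's untreated reads and 58.8% of its salt reads. The 9 entries named after Arabidopsis or Brassica together had 96 untreated reads and 1 salt read, and none was tested. The 5 tobacco names together had 29 and 0 reads. The other 4 tested entries carried names of cassava, grapevine and sunflower.

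**Figure D3:**
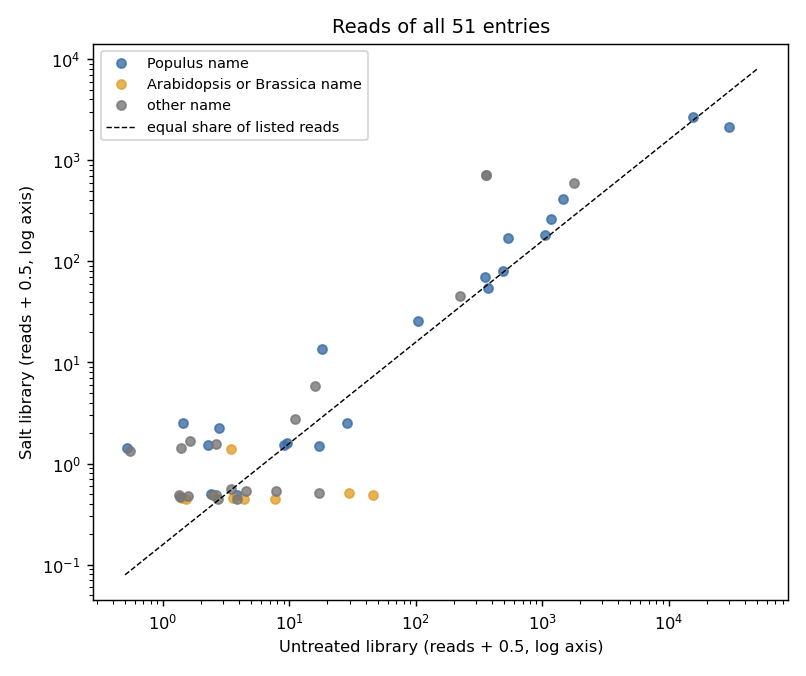
Reads of each of the 51 entries in the untreated (x) and salt (y) libraries on log axes with 0.5 added, coloured by the species in the entry name; points under 20 reads are shifted slightly at random to show ties, and the dashed line marks equal shares of the listed reads. Entries with Arabidopsis or Brassica names lie at the lower left, with at most 45 untreated and 1 salt reads, and the points far above the line at upper centre are the identical miR3630 names.

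Lengths differed from those of the numbered entries outside the group. Entries of 24 bases made up 9 of 51 in the group (17.6%) and 1 of 112 outside it (0.893%). Entries of 21 bases made up 45.1% and 58.9%. In the group, the entries of 24 bases held 7.89% of its untreated reads and 12.6% of its salt reads, nearly all from miR481. The share of entries that begin with T was 58.8% in the group and 53.6% outside it. These are descriptions of the listed entries, which are not independent, and were not tested.

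Hairpins could be examined for 10 entries on 6 precursors. Folded with RNAfold, the minimum free energy per base had a median of -0.34 kcal/mol in the group and -0.42 over 16 precursors of other numbered families. In the mature stretch, the median share of paired bases was 78.6% in the group and 85.7% in 32 entries outside it. The lowest shares were outside the group, down to 45.5%, with 4 entries under 60% there and 0 in the group. The strongest fold of the group was that of ptc-MIR6423-p5_1ss5GC, at -0.56 kcal/mol per base. There 16 of the 18 paired bases of the mature stretch paired within that stretch and not with another arm, and the entry had 1 salt read only. In ptc-MIR481d-p3, 8 of the 16 paired bases paired within its own stretch, and its paired share of 66.7% was the lowest of the group. The weakest fold of the group was that of MIR6485, at -0.20 kcal/mol per base, the same value as the weakest outside it. Its p3 arm had 10 degradome sites in KLCR3, a kinesin light chain-related protein of cortical microtubules. Each had 2 reads, a score of 3.5 and a divisor of 10, so that the divided counts sum to 2 reads.

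The MIR6469 hairpin is shown because its other strand was listed as a predicted miRNA. It lay at positions 3323 to 3469 of contig c1171_f6p3_3892_3_6kb, and capitals mark both listed arms.
ptc-MIR6469: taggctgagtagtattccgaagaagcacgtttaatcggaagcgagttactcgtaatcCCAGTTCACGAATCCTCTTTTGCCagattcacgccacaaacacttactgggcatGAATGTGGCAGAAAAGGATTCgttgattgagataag
Bases 52 to 147 of this precursor are identical to the reverse complement of all 96 bases of the precursor of PC-5p-34123_123 and PC-3p-269754_8. That precursor was listed on the same contig at 3409 to 3504, so the listed ends differ by 35 positions although the bases are the same. Read counts on this strand were 28 and 2 for ptc-MIR6469-p3, and 2 and 0 for ptc-MIR6469-p5. On the opposite strand, PC-5p-34123_123 had 62 and 4 reads and PC-3p-269754_8 had 8 and 1.5.

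The degradome evidence of the group was thinner than that of the other entries. The median site had 2 reads in the group and 10 among the 801 pairs of other entries, and sites with at least 10 reads made up 9.44% and 50.3%. A score of 2 or lower was held by 19 of the 180 pairs (10.6%) and by 22.7% of the others, and a score of 4 by 47.2% and 29.8%. The 17 sites with at least 10 reads came from ptc-miR1444a, ptc-miR3627a and ptc-miR6457b. Pairs of a miRNA and its many sites are not independent, so these shares were not tested.

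Position of the cut followed the alignment. Cleavage is known to fall opposite the bond between bases 10 and 11 of the miRNA, counted from its 5′ end. In 75 pairs of the group the aligned stretch was as long as the miRNA, and in all 75 the site lay opposite base 10. The same held for all 645 such pairs of other entries. The sources used here do not say whether sites at other positions were left out, so the position cannot count as evidence of cutting. In the other 105 pairs of the group (58.3%) the aligned stretch was shorter or longer than the miRNA, against 19.5% of the 801 pairs elsewhere. All 53 pairs of the group whose site was counted opposite base 9 or 11 were among these. They include the 8 ARGONAUTE sites under each miR3630 name, the 10 KLCR3 sites of the MIR6485 p3 arm and the 4 SBT1.8 sites of ptc-miR1444a.

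Entries with hardly any reads gave a large part of the pairs. The 2 entries of 18 bases, gma-miR5380a_L-2R-4_1ss9AT and mtr-miR5208a_L-2R-3_1ss10GA, had 4 and 2 untreated reads and none with salt. They accounted for 67 of the 180 pairs (37.2%) and 31 of the 50 symbols, with at most 5 reads at a site. For gma-miR5380a the sites with 5 reads lay in At3g51950, Os03g0328900 and Os03g0329200, with a score of 3 and a divisor of 3. It also had sites with 1 read in the receptor kinase genes IKU2, HSL1 and RLK5, and in both coatomer symbols At1g62020 and Os09g0127800 that ptc-miR6427-3p had. For mtr-miR5208a the site with most reads, 4, lay in BHLH93, and PPC1, a phosphoenolpyruvate carboxylase, had 6 sites with 3 reads each. Single reads lay in TPL and TPR1, corepressors that act in auxin and jasmonate signalling.

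Most other low entries with pairs had sites near the weakest score. ath-miR824-3p, with 3 untreated reads and 1 salt read, had 13 sites with 1 to 3 reads and a score of 4, among them CLPC1, a chaperone of chloroplast proteases. The other miR824 entry, bra-miR824, had 3 untreated reads, none with salt, and no pair. mtr-miR2199_1ss17AG had 7 sites with 1 read each in NUP98A and NUP98B, nucleoporins of the nuclear pore. ptc-miR6425a-5p_R+1_2ss16TA18GT had 2 sites with 3 reads each and a score of 3, and aly-miR158a-3p had 1 site with 1 read and a score of 2.5, all without a symbol. The legume disease resistance regulator mtr-miR1507-3p_L+1R-1 had 1 read in each library and 1 site with 1 read, without a symbol.

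**Figure D4:**
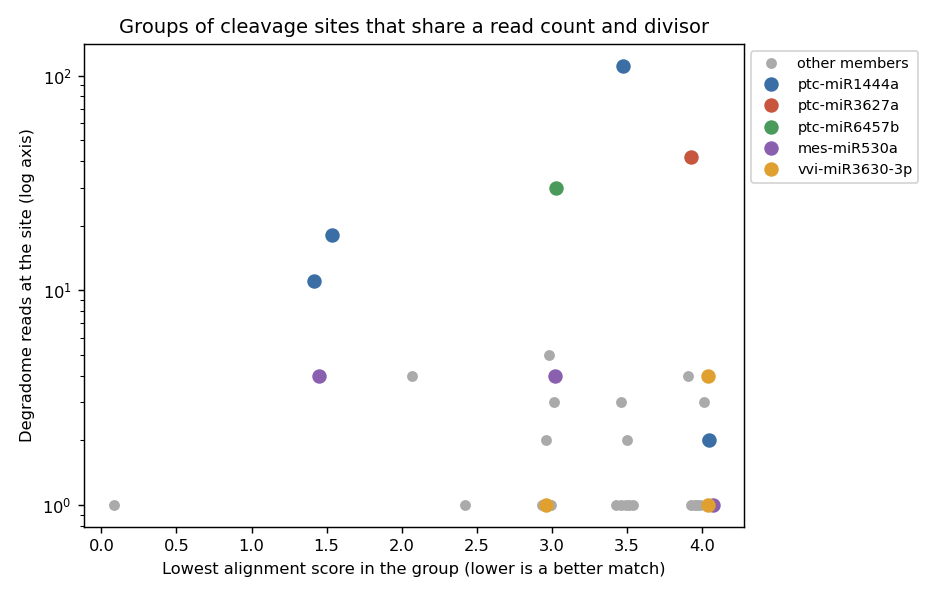
Degradome reads at a site (log axis) against the lowest alignment score in each group of pairs that share a miRNA, a read count and a divisor, with identical miR3630 names shown once; points are shifted slightly sideways at random. The sites of ptc-miR1444a with 111 reads, of ptc-miR3627a with 42 and of ptc-miR6457b with 30 stand above all other groups, at scores of 3.5, 4 and 3.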

How the data were processed

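For each mature sequence the authors deposited estimated counts, headed raw in the file, and 9 of the 51 entries hold parts of reads. For the degradome they deposited raw counts per cleavage site, a scaled signal headed TPB and an alignment score, per the file headers. Trimming, mapping and calling tools are not given in the sources used here. Columns naming 0 and 2 days were matched to samples by title.

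Levels were divided by the total of the listed reads, which is not the full depth. Ratios used a pseudocount of 1 RPM and a minimum mean level of 10 RPM. Intervals were exact, after rounding estimated counts, and cover counting error only, since reads copied by PCR are not independent. Calls and intervals were tested on simulated data. For the calls, the most abundant entries were held unchanged there, so a shift of the reference total was not covered. Precursors were folded with RNAfold 2.7.2, and the rest used Python 3.11.15 with scipy 1.17.1. Alternatives covered pseudocount, level minimum, threshold, scaling, thinning and degradome cutoffs. Entries named are those at the minimum, the 10 most read below it, those with no reads in a single library, entries that share a sequence or precursor, and the best read sites. Entries and sites beyond this were chosen after their values were seen. The members and lists were chosen with earlier results of these data known.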

Additional observations from a re-analysis of the deposited data

How the results depend on the processing

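With 1 library per condition, depth and the reference total limit every ratio, and only counting error could be estimated. No paired analysis was possible because each condition had 1 library. The group had 4 entries called higher, 1 lower and a median log2 ratio of 0.51. Without a level minimum these became 9, 7 and -0.21, and at 50 RPM the median was 0.33. When the total left out its 5 largest entries, 6 further entries passed the minimum, and 3 were higher and 6 lower at a median of -0.68. Over the original 15, a comparison added after seeing the data, 3 were higher and 2 lower at -0.47. Without miR159 the median was 0.13. With median ratio scaling ptc-miR3627b fell below the minimum, 2 were higher and the median was 0.060, against 3 and 0.15 over the original 15. With distinct sequences 2 were higher at a median of 0.25, and without possible rRNA or tRNA fragments 6 were higher and 0 lower at 0.73. At 4-fold, 2 were higher and 0 lower. The group's shares of 1.17% and 1.11% became 6.29% and 3.05% when the 5 largest entries were left out, 1.59% and 1.16% when miR159 was, and 1.34% and 1.04% with distinct sequences. The 180 degradome pairs and 50 symbols fell to 57 and 16 at a score of 3 or lower, 19 and 3 at 2 or lower, 94 and 22 with at least 2 reads, and 17 and 4 with at least 10 reads. Without the 18-base entries, an alternative chosen after seeing the data, 113 and 21 were left. The cause of these changes was not tested beyond the entries that passed or missed the minimum. For single entries, 47 alternative values moved beyond the counting interval, 72 did not, and no called entry changed sign.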
